A study of Mus musculus with 9 samples.

Results

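The replication-dependent core histone genes are described here in haematopoietic stem cells (HSCs), the marrow cells that renew themselves and give rise to all blood lineages. Members are the genes whose symbol has the current form for a clustered H2A, H2B, H3 or H4 gene, such as H2ac24 or H4c12. They number 60 of the 19454 genes listed, with 18 in the H2A family, 17 in H2B, 12 in H3 and 13 in H4. By the annotation, 47 lie on chromosome 13, 10 on chromosome 3, 2 on chromosome 11 and 1 on chromosome 6. All 60 passed the filter on low counts and were tested with the other genes, 14461 in all.

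The HSCs were sorted from the marrow of wild-type mice, 1500 cells per library, and profiled by low-input sequencing of polyadenylated RNA in 9 libraries. In the spermidine group (3 libraries) the mPFC and PAG, regions of the brain, were inhibited chemogenetically and the mice also received spermidine, a polyamine found in animal cells and made by gut bacteria. The inhibition group (3 libraries) had the same brain inhibition with no supplement. The control group (3 libraries) has no intervention in its labels. Library names carry AAV, a common short form for a viral vector, in both inhibited groups and Ctrl in the control group. They do not say whether control mice had a vector, so its effect cannot be told apart from that of the inhibition. The labels give no age, no receptor, promoter or drug for the inhibition, no dose of spermidine, no sort markers and no batch, and do not tie libraries to animals, so the p-values below measure only the spread between libraries, which may be technical. Total counts ran from 16096276 to 25360256 per library.

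Core histones form the protein spool of the nucleosome, on which DNA is wound. Dividing cells make most of their histone protein in S phase, while DNA is copied, from clustered genes whose mRNAs are not given a poly(A) tail. Their transcripts are cut just after a short stem-loop, and the stem-loop-binding protein (Slbp) holds that structure and carries the mRNA through processing, translation and decay. Some of these genes can also be read through to a downstream poly(A) site, which yields longer, polyadenylated mRNA, a form known from differentiated or resting cells. A protocol that copies polyadenylated RNA is therefore not built to capture most histone mRNA, and the levels below are those of the histone RNA that entered these libraries.

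The stem-loop is the feature that sets these transcripts apart, so it is shown for a few members, most of them used below. It is read in mRNA sense from the annotated transcripts of GENCODE M21 (mm10). Capitals mark the bases of the stem, which pair with each other, and the lower-case bases between them are the loop.
H2ac24, chr13:21833026-21833049, minus strand: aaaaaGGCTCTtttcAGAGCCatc
H2ac20, chr3:96220413-96220438, minus strand: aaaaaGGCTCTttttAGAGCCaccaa
H2bc3, chr13:23747198-23747223, plus strand: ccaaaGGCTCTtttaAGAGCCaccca
H3c14, chr3:96247322-96247347, plus strand: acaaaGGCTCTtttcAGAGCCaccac
H4c17, chr13:21812124-21812147, plus strand: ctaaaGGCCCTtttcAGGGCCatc
H4c2, chr13:23757361-23757386, plus strand: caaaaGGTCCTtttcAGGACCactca
H4c16, chr6:136803993-136804018, minus strand: acaaaGGCCCTtttcAGGGCCcacaa
The search, on the transcript's own strand, was for GGNNCT followed by the loop TTTN and by AGNNCC, with all 6 base pairs of the stem intact. It found the stem-loop in a transcript of 40 of the 60 members, and the letters alone were in transcripts of 0.396% of all listed genes. The H2A, H2B and H3 members that matched shared the stem GGCTCT, and differed only in the last base of the loop. All 11 H4 members that matched had another stem, GGCCCT in 9 and GGTCCT in 2. No match says only that these letters are not in the annotated transcript, since several models stop at the end of the coding sequence.

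By the annotated 3′ end, 22 members end at the stem-loop, within 100 bases of it. This class was assigned first, even where a gene is spliced. Of the others, 22 have long models, which run further past the stem-loop, are spliced or exceed 1000 bases. The remaining 16 are short models with no stem-loop in the annotation. A polyadenylation signal (AATAAA or ATTAAA) lies in the last 60 bases of a transcript in 12 of the 22 long models, in 2 of the 22 that end at the stem-loop and in 1 of the 16 short ones. These classes describe the annotation and not the RNA molecules sequenced here.

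Core histone RNA was lower in both inhibited groups than in control, in every family. The 60 genes together took 0.332%, 0.342% and 0.330% of counts in the spermidine libraries and 0.335%, 0.359% and 0.342% in the inhibition libraries, against 0.910%, 0.887% and 0.884% in the control libraries. The inhibition libraries held 0.386 times the control share, and the spermidine and inhibition libraries overlapped. In bulk samples such as these, fewer cells of a type and less RNA per cell cannot be told apart.

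One gene carried most of this sum. H2ac24, an H2A gene of the chromosome 13 cluster (chr13:21833026-21833507, 1 unspliced exon), made up 94.7% ± 0.192 of H2A TPM in spermidine libraries, 95.0% ± 0.175 in inhibition libraries and 89.6% ± 0.696 in control libraries (SD, n = 3 each; TPM is an abundance scaled for transcript length and depth). Of its 150-base stretches, the length of a read, 9.0% are found in no other annotated gene, so its reads could in part be those of other H2A genes and its value is uncertain. Without H2ac24 the other 59 genes held 0.0930% ± 0.00137 of counts in spermidine libraries, 0.0889% ± 0.00227 in inhibition libraries and 0.311% ± 0.00484 in control libraries. The inhibition libraries then held 0.286 times the control share.

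The families differed in how far they fell. As a share of counts with all members included, H4 was lowest relative to control, at 0.0130% ± 0.000462 in inhibition libraries and 0.0505% ± 0.00206 in control libraries, a ratio of 0.257. H2B held 0.0490% ± 0.000789 in inhibition libraries and 0.152% ± 0.00126 in control libraries, a ratio of 0.322. H3 held 0.00645% ± 7.34e-05 in inhibition libraries and 0.0174% ± 0.000853 in control libraries, a ratio of 0.371. H2A held 0.277% ± 0.0113 in inhibition libraries and 0.674% ± 0.0131 in control libraries, a ratio of 0.411. The order changed without the most abundant gene of H2A or of H2B: without H2ac24 the H2A ratio was 0.225, and without H2bc4 the H2B ratio was 0.2415, both below that of H4 with all members. H3 and H4 were not summed without their own most abundant gene, so this order compares unlike sums. In each family the 3 inhibition libraries lay below the 3 control libraries, and the ratios between families were not tested.

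**Figure D1:**
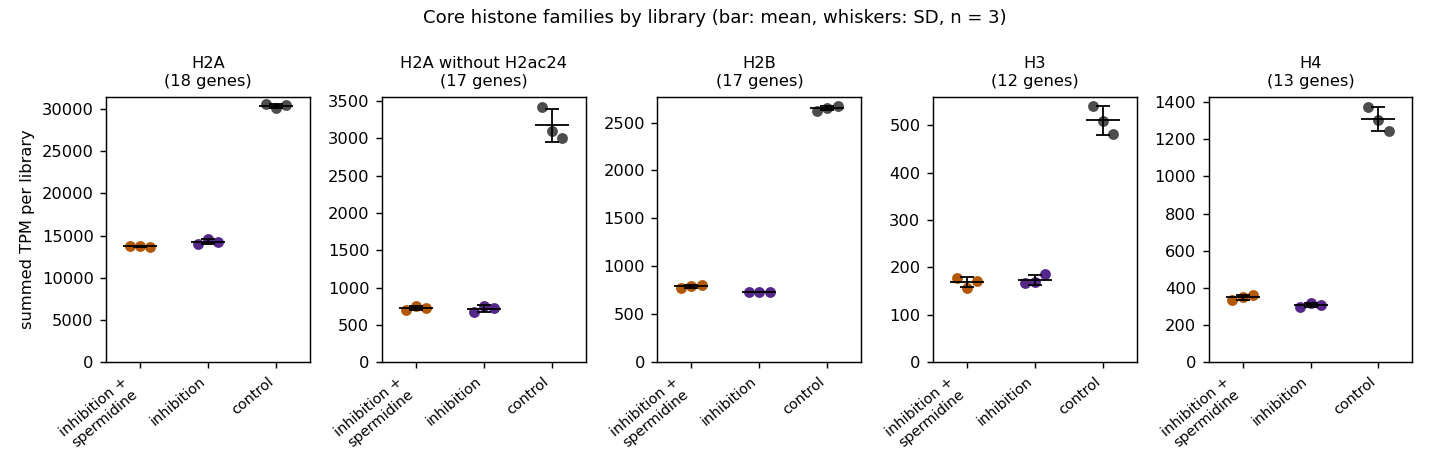
Summed TPM of each core histone family in each library (points), with the mean and SD of 3 libraries, in the spermidine, inhibition and control groups; each panel has its own axis from 0. The control libraries stand above all others in every panel, and H2A without H2ac24 had 725 ± 24.5 TPM in spermidine, 718 ± 41.7 in inhibition and 3176 ± 220 in control libraries.

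Per gene, inhibition against control was tested with edgeR's quasi-likelihood test across all genes, with Benjamini-Hochberg adjustment and a threshold of 0.05. Of the 60 members 56 were lower, 2 were higher and 2 did not pass. Of all tested genes 36.1% were called lower, 36.2% higher and 72.4% either way, so calls were common. The size of the fall separated the members more than its call: 53 were lower by at least 2-fold, against 14% of all tested genes. The median log2 fold change was -2.02 over the members and 0.02 over all tested genes. The libraries of both groups did not overlap in 58 members, against 74.5% of all tested genes.

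Among H2A genes, 17 of 18 were lower and 1 did not pass, and the median was -2.17 on the log2 scale. H2ac24 had 2619, 2816 and 2734 CPM (counts scaled by library size with TMM) in inhibition libraries and 6373, 6134 and 6087 CPM in control libraries, with no overlap. Its log2 fold change was -1.19 ± 0.03 (SE; adjusted p = 9.75e-16 by edgeR's quasi-likelihood test), the least among the H2A members that passed.
H2ac20, from the chromosome 3 cluster, had 6.70, 8.85 and 7.25 CPM in inhibition libraries and 74.0, 71.8 and 68.9 CPM in control libraries. It fell by 3.21 ± 0.07 on the log2 scale (adjusted p = 2.99e-16), the most in the family in the edgeR fit but not with limma on log2(TPM + 1), where it was -2.97, and every 150-base stretch of this gene is found in no other annotated gene. H2ac12, with -3.15 ± 0.20, and H2ac15, with -3.14 ± 0.09, fell by nearly as much. H2ac13, the next most abundant after H2ac24 and H2ac18 by TPM, had 72.8 ± 19.7 TPM in inhibition libraries and 665 ± 165 TPM in control libraries (SD, n = 3 each). Only 15.2% of the 150-base stretches of H2ac12 and 13.9% of those of H2ac13 are found in no other annotated gene. Reads of these genes could in part be those of other H2A genes, while H2ac15 shares none of its stretches.

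H2ac18 and H2ac19 are neighbours on chromosome 3 with no 150-base stretch of their own, and their counts moved against each other between libraries. H2ac19, named after its values were seen, was listed at 0 in 1 inhibition and 1 spermidine library and reached 36.2 CPM in another inhibition library. It was the H2A member that did not pass (adjusted p = 0.0623 by edgeR), though it was called lower without the third control library (-1.78, adjusted p = 0.0259), without the third inhibition library (-2.81, adjusted p = 0.0049) or without the first spermidine library (-1.45, adjusted p = 0.0434). Their sum did not show that spread: 95.5, 105 and 103 CPM in inhibition libraries against 361, 352 and 339 CPM in control libraries, a ratio of 0.289. The split of reads between these near-identical genes is therefore uncertain and their sum is the firmer value.

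Of the 17 H2B genes 16 were lower and 1 was higher, with a median log2 fold change of -1.95. H2bc4, the most abundant by TPM and annotated as a spliced gene, had 323, 326 and 325 CPM in inhibition libraries and 797, 813 and 810 CPM in control libraries. It fell by 1.31 ± 0.03 on the log2 scale (adjusted p = 5.29e-17), less than most of its family, and held 32.8% ± 0.227 of H2B TPM in inhibition libraries against 21.1% ± 0.276 in control libraries. H2bc11, which ends at the stem-loop, had 22.3, 22.3 and 22.5 CPM in inhibition libraries and 120.1, 125 and 119 CPM in control libraries. Its log2 fold change of -2.44 ± 0.04 (adjusted p = 1.62e-17) was below the family median. H2bc15 had the lowest fold change of all 60 members in the edgeR fit, with 2.64, 2.82 and 3.25 CPM in inhibition libraries and 28.1, 35.4 and 20.02 CPM in control libraries, a log2 fold change of -3.25 ± 0.20 (adjusted p = 1.54e-10). With limma on log2(TPM + 1) it was -2.88, and H2ac12, at -3.19, was lower.

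Of the 12 H3 genes 10 were lower, 1 was higher and 1 did not pass, with a median of -1.63. H3c13 had the highest TPM of the family, 52.4% ± 0.802 of it in inhibition libraries and 48.9% ± 0.602 in control libraries (SD, n = 3 each). It had 17.4, 17.8 and 19.1 CPM in inhibition libraries and 61.7, 56.9 and 56.1 CPM in control libraries (log2 fold change -1.68 ± 0.06, adjusted p = 1.65e-13 by edgeR). It shares all its 150-base stretches with other genes. H3c1 fell to 1.23, 1.29 and 2.35 CPM in inhibition libraries, against 14.1, 16.8 and 13.3 CPM in control libraries, at -3.18 ± 0.19 on the log2 scale (adjusted p = 9.33e-11). H3c6, a long model, fell by 0.67 ± 0.08 only (adjusted p = 7.03e-07), and H3c7, another long model, had 7.50, 6.52 and 5.05 CPM in inhibition libraries and 5.16, 5.58 and 5.16 CPM in control libraries, which overlap (adjusted p = 0.165). Without the third inhibition library H3c7 was called higher (0.38, adjusted p = 0.0413).

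All 13 H4 genes were lower, with a median of -2.05. The H4 genes of the mouse encode the same protein from different coding sequences. H4c17, the most abundant by TPM, had 17.5, 20.4 and 22.5 CPM in inhibition libraries and 137, 135 and 121 CPM in control libraries (log2 fold change -2.69 ± 0.07, adjusted p = 7.22e-16 by edgeR). Few of its 150-base stretches are its own, and the sum of H4c17 and H4c18, its closest copy, was 42.2 ± 2.26 CPM in inhibition libraries and 219 ± 7.98 CPM in control libraries (SD, n = 3 each). H4c9, a long model, fell least in the family, with 32.8, 34.2 and 34.2 CPM in inhibition libraries and 70.4, 70.5 and 66.8 CPM in control libraries, a log2 fold change of -1.03 ± 0.04 (adjusted p = 1.28e-12). Its share of H4 TPM was 13.9% ± 0.281 in inhibition libraries and 6.25% ± 0.321 in control libraries.

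H3c14 and H2bc23 were the 2 members higher in inhibition than in control. H3c14 had 6.88, 5.86 and 5.50 CPM in inhibition libraries and 5.28, 2.47 and 2.94 CPM in control libraries, with 1 control library just below the inhibition range (log2 fold change 0.78 ± 0.20, adjusted p = 0.00209 by edgeR). H2bc23 had 6.88, 10.4 and 8.05 CPM in inhibition libraries and 5.70, 5.63 and 4.75 CPM in control libraries (0.69 ± 0.16, adjusted p = 0.00119). Both have long models with a polyadenylation signal near the end, and both share most of their 150-base stretches with other annotated genes. For H3c14 these include genes that are not members. Summed with member copies the direction turned: H3c13, H3c14 and H3c15 together had 28.5 ± 0.709 CPM in inhibition libraries and 74.8 ± 4.60 CPM in control libraries, and H2bc23 with H2bc24 had 23.1 ± 1.69 CPM in inhibition libraries and 29.9 ± 1.61 CPM in control libraries (SD, n = 3 each). Most of the H3 sum in control libraries came from H3c13, at 58.3 CPM. Its model of 488 bases is much shorter than that of H3c14, at up to 1825, so the sum does not settle the direction of H3c14.

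**Figure D2:**
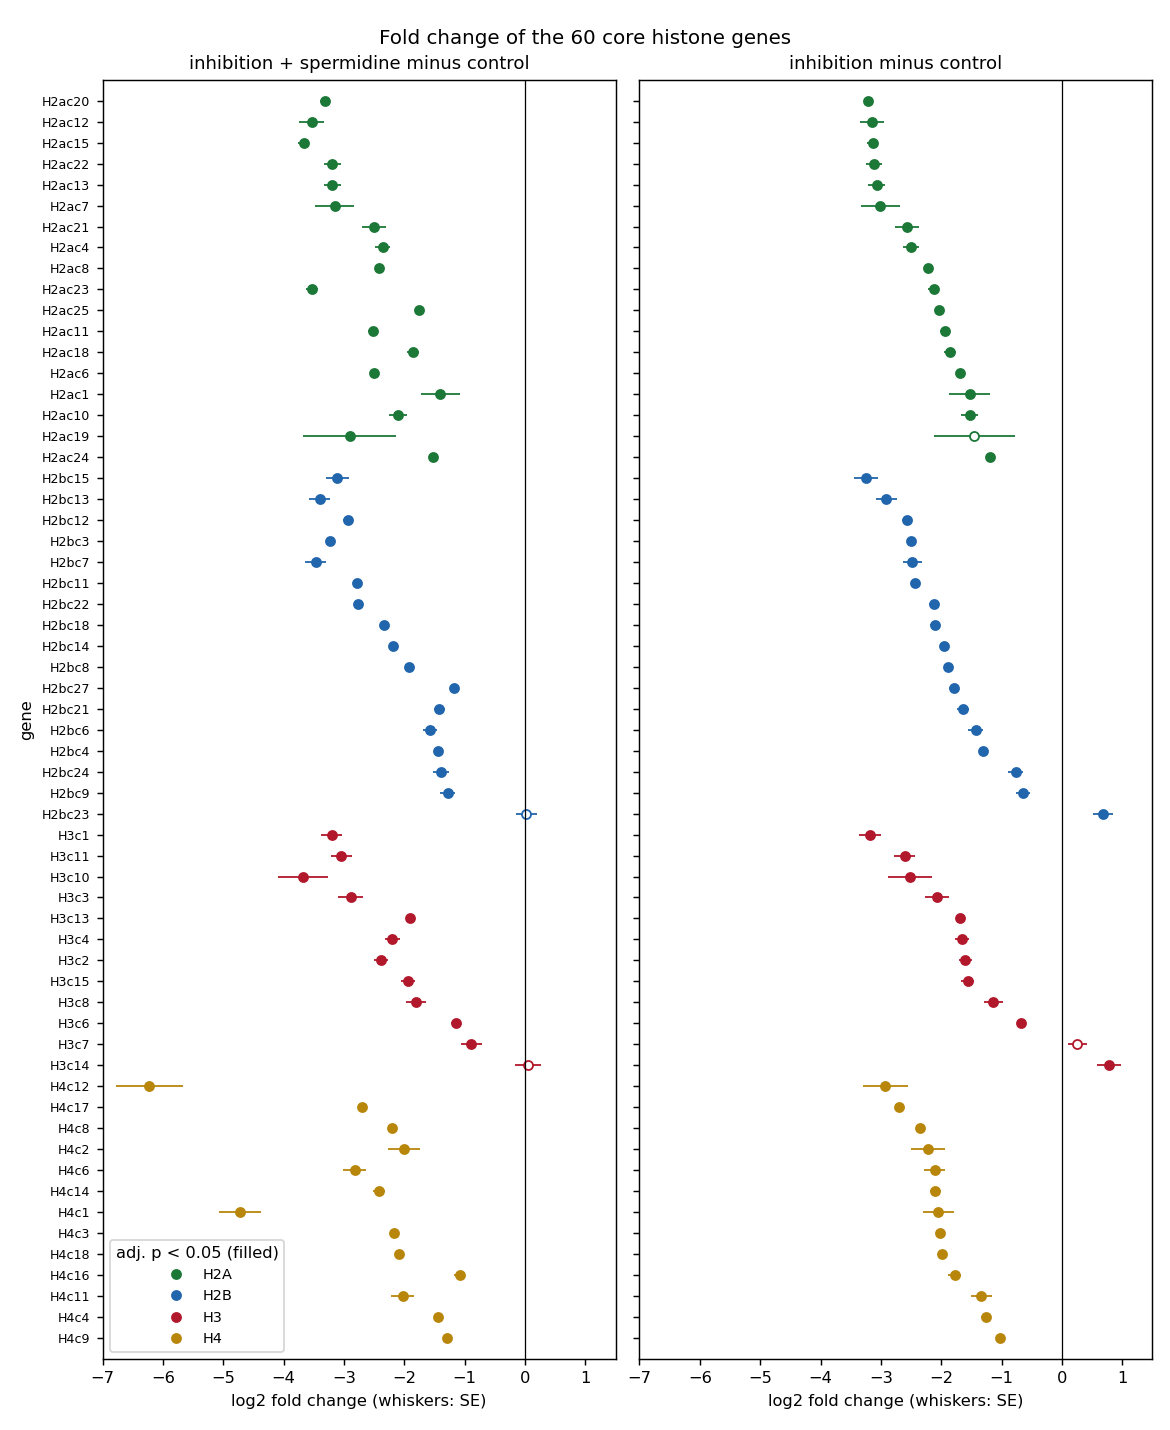
Log2 fold change of each of the 60 genes with its SE, spermidine minus control (left) and inhibition minus control (right), grouped by family and ordered within it by the right-hand value; filled points passed an adjusted p of 0.05 in edgeR and open points did not. In the right panel 56 genes lie left of 0 with filled points, and H3c14 and H2bc23 lie right of it.

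The median fall differed between the classes of annotated 3′ end, which the choice of members did not use. In inhibition against control the median log2 fold change was -2.17 in the 22 members that end at the stem-loop and -2.59 in the 16 short models, but -1.50 in the 22 long models. The classes overlapped: values ran from -3.21 to -1.19 in the stem-loop class and from -2.23 to 0.78 in the long models. H2ac24, which ends at the stem-loop and carried most of the member counts, fell by 1.19, less than the long-model median. The 4 members other than H2ac19 that rose, did not pass or fell least, H3c14, H2bc23, H3c7 and H2bc9, are all long models. H2bc9, named after its values were seen, fell by 0.64 on the log2 scale. In spermidine against control the medians were -2.77 for the stem-loop class, -3.15 for the short models and -1.44 for the long models. No test of the classes was run, and the long models include both the abundant H2bc4 and several genes under 5 CPM.

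**Figure D3:**
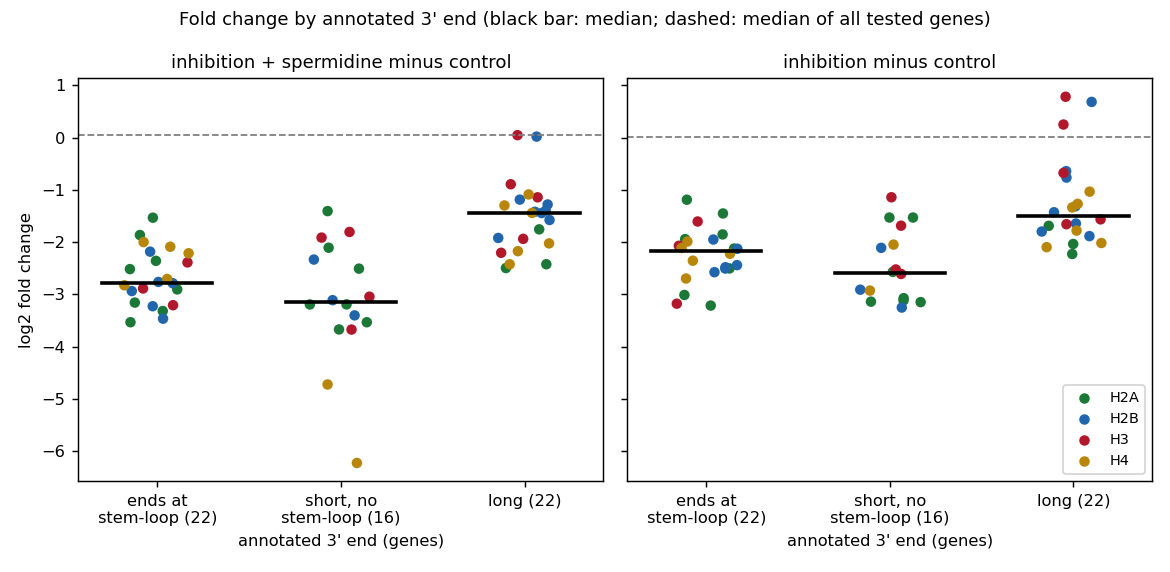
Log2 fold change of the members by annotated 3′ end, spermidine minus control (left) and inhibition minus control (right); each point is a gene coloured by family, the black bar is the class median and the dashed line the median of all tested genes. The long models have the highest medians in both panels, -1.44 and -1.50, and the points of the classes overlap.

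The next values bear on reads shared between copies and on transcript length. Of the 32 members with at least 70% of their 150-base stretches to themselves, a limit set after the values were seen, 31 were lower in inhibition than in control and 1, H3c7, did not pass, and their median was -1.98 on the log2 scale. Of the 13 members with under 20%, 10 were lower, 2 were higher and 1 did not pass. With each gene's deposited count and TPM used to correct for the transcript length they imply, the counts of calls were the same, 56 lower and 2 higher, with a member median of -1.90.

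Spermidine against inhibition gave smaller differences, and their direction depended on how the libraries were scaled. With TMM scaling 33 of the 60 members were lower, 3 were higher and 24 did not pass, where 28.9% of all tested genes were called lower, 29.1% higher and 58.1% either way. A fall of at least 2-fold was called in 4 of the 60 members, a larger share than the 3.24% of all tested genes. The member median was -0.35 and that of all tested genes 0.03. With total count as the scale, which moved the median of all genes by 0.261, 10 members were higher and 16 lower with a member median of -0.09, or -0.37 relative to the median of all genes, as with TMM. Of all 14461 genes, 7711 were then higher and 1793 lower on that scale. The limma fit on log2(TPM + 1) gave 9 members higher and 11 lower, with 7112 of all genes higher and 1256 lower. The member median was then -0.003 and that of all genes 0.18. Under both of these scalings a smaller share of the members than of all genes was called higher, and a larger share lower. As a share of counts the spermidine libraries held 0.949 times the inhibition share of H2A, 1.07 times that of H2B, 0.846 times that of H3 and 1.09 times that of H4.

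The 3 members higher with TMM were also called higher with DESeq2's size factors, total count and limma on TPM, 4 fits in all, and they are the 3 members outside the clusters on chromosomes 13 and 3. Total count and limma called other members higher too. H2bc27 on chromosome 11 had 19.2, 22.2 and 22.1 CPM in spermidine libraries and 13.9, 13.3 and 14.4 CPM in inhibition libraries, a log2 fold change of 0.61 ± 0.07 (adjusted p = 2.43e-06 by edgeR). H4c16 on chromosome 6 had 5.88, 6.53 and 7.03 CPM in spermidine libraries and 4.67, 3.74 and 3.70 CPM in inhibition libraries (0.69 ± 0.12, adjusted p = 9.76e-05). H2ac25, the neighbour of H2bc27 on chromosome 11, had 22.01, 22.07 and 19.98 CPM in spermidine libraries and 18.1, 18.4 and 16.4 CPM in inhibition libraries (0.28 ± 0.06, adjusted p = 0.000796). None of these libraries overlapped between the groups. All 3 have long models with a polyadenylation signal near the end, and all remained below control, where H2bc27 had 45.3, 47.7 and 50.8 CPM. Of the 150-base stretches of H2ac25, 72.0% are found in no other annotated gene, and it overlaps the gene Trim17. Its reads could in part be those of another gene.

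Under the same 4 fits 11 members were lower in spermidine than in inhibition in each. The share of all tested genes with the same call in all 4 was not counted. Of all 14461 genes limma called 1256 lower, so at most that many were lower in all 4. For the 3 higher members, DESeq2's size factors gave 3989 of all genes higher, the most that could be higher in all 4. H4c12 had 0.403, 0.235 and 0 CPM in spermidine libraries and 2.89, 2.62 and 1.60 CPM in inhibition libraries, at -3.30 ± 0.83 on the log2 scale (adjusted p = 0.00301 by edgeR), and these spermidine values are near the limit that a count of 0 allows (0.118 to 0.186 CPM). H4c1 had 0.443, 0.117 and 0.0554 CPM in spermidine libraries and 1.23, 0.955 and 2.15 CPM in inhibition libraries (-2.68 ± 0.46, adjusted p = 0.000114). Its values of 0.117 and 0.0554 CPM lie below that limit. H2ac23, better covered, had 4.55, 3.17 and 5.37 CPM in spermidine libraries and 10.8, 10.8 and 12.5 CPM in inhibition libraries, a log2 fold change of -1.41 ± 0.13 (adjusted p = 9.47e-08). It shares most of its sequence with H2ac24, whose count is far larger. H3c7 had 2.30, 2.62 and 3.87 CPM in spermidine libraries and 7.50, 6.52 and 5.05 CPM in inhibition libraries (-1.14 ± 0.17, adjusted p = 2.95e-05).
For the most abundant genes the value was of the size of the 0.261 by which total count moved the median of all genes: H2ac24 was lower by 0.34 ± 0.03 with TMM and by 0.08 with total count, and H2bc4 was lower by 0.13 ± 0.03 with TMM and higher by 0.13 with total count, so the sign of H2bc4 is set by the scale. In 35 members the libraries of these groups did not overlap, against 62.8% of all tested genes.

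**Figure D4:**
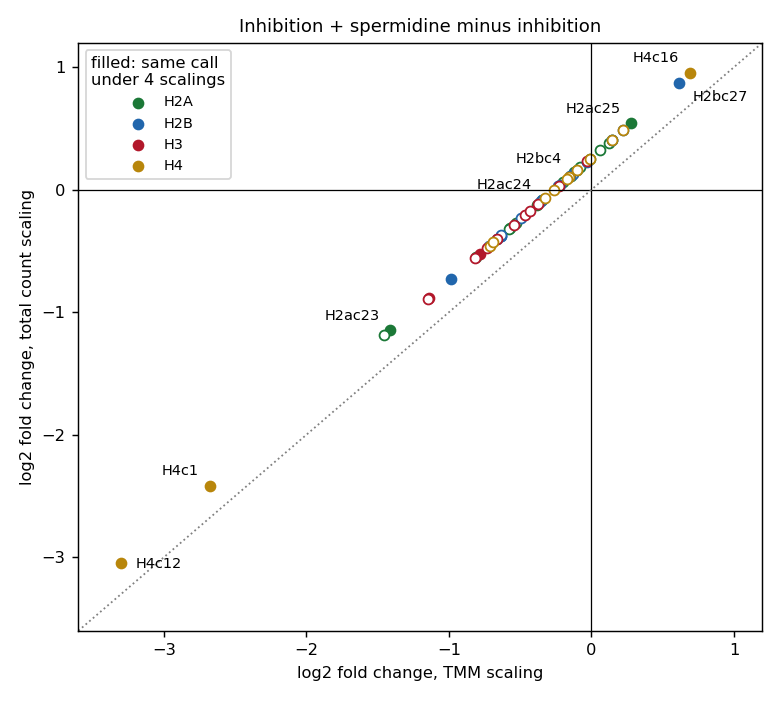
Log2 fold change of the 60 genes in spermidine minus inhibition with TMM scaling (x) and total count scaling (y); filled points had the same call under 4 fits, and the dotted line marks equal values. All points lie above the dotted line by about the same amount, and H2bc27, H4c16 and H2ac25 are above 0 on both axes.

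In spermidine against control, which shares its control libraries with the first comparison, 58 members were lower, none was higher and 2 did not pass in edgeR's quasi-likelihood test, where 37.1% of all tested genes were called lower, 41% higher and 78.1% either way. No member was higher in DESeq2's Wald test or in limma either, and no member had an unadjusted p under 0.05 with a positive fold change. The fall was at least 2-fold in 57 members, against 12.2% of all tested genes. The member median was -2.35, with -2.51 in H2A, -2.18 in H2B, -2.07 in H3 and -2.17 in H4, and that of all tested genes 0.06. In 58 members the libraries did not overlap, against 79.8% of all tested genes.
The largest falls were in H4c12, with 0.403, 0.235 and 0 CPM in spermidine libraries and 29.6, 16.1 and 8.87 CPM in control libraries, and H4c1, with 0.443, 0.117 and 0.0554 CPM in spermidine libraries and 5.95, 6.49 and 5.37 CPM in control libraries. Several of these spermidine values are near or below the limit that a count of 0 allows. H3c10 had 0.887, 0 and 1.88 CPM in spermidine libraries and 14.6, 7.83 and 9.65 CPM in control libraries (log2 fold change -3.67 ± 0.41, adjusted p = 4.66e-07 by edgeR). Only 9.5% of the 150-base stretches of H3c10 are its own, so its value is uncertain. H2ac15, with every 150-base stretch to itself, had 3.06, 3.01 and 2.66 CPM in spermidine libraries and 39.2, 37.5 and 35.6 CPM in control libraries (-3.67 ± 0.09, adjusted p = 1.54e-15).
The 2 members that did not pass were H2bc23 and H3c14. H2bc23 had 5.76, 6.22 and 3.98 CPM in spermidine libraries, and H3c14 had 3.51, 3.29 and 4.21 CPM, both overlapping the control values given above (adjusted p = 0.915 and 0.842). Without the first control library, which is the highest of the 3 for H3c14, that gene was called higher (log2 fold change 0.40, adjusted p = 0.0456).

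The linker histones, which bind the nucleosome from outside, include replication-dependent genes of the same chromosome 13 cluster that the choice by symbol left out. All 5 of these, H1f1 to H1f5, were lower in inhibition than in control, with a median log2 fold change of -2.12. Of all tested genes 36.1% were lower and 36.2% higher. H1f5 had 12.8, 13.1 and 11.8 CPM in inhibition libraries and 97.5, 93.3 and 99.2 CPM in control libraries (-2.94, adjusted p = 6.57e-17 by edgeR). H1f2 had 21.26, 20.98 and 21.75 CPM in inhibition libraries and 85.1, 82.3 and 79.2 CPM in control libraries (-1.95, adjusted p = 4.16e-16).
The other 10 histone genes tested were mostly replacement variants made outside S phase from polyadenylated mRNA. They had a median of -0.30, with 8 lower, 1 higher and 1 not passing, against the same shares of all tested genes. H3f3b, which encodes the H3.3 variant, had 5956, 5841 and 5940 CPM in inhibition libraries and 6234, 6114 and 6030 CPM in control libraries (adjusted p = 0.0716). H2az1, a gene for the H2A.Z variant, fell by 0.07 only (adjusted p = 0.0157), and H2ax, for the variant phosphorylated at DNA breaks, fell by 0.81 (adjusted p = 1.14e-11). Macroh2a1, for a large H2A variant of silent chromatin, was higher, with 1525, 1532 and 1518 CPM in inhibition libraries and 764, 720 and 695 CPM in control libraries (1.07, adjusted p = 8.65e-15). H1f10, a linker variant near the detection limit, had 0.307, 0.415 and 0.150 CPM in inhibition libraries and 4.12, 3.22 and 2.12 CPM in control libraries (-3.37, adjusted p = 2.29e-07).

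Genes that make or handle histone mRNA and protein were called in both directions, as were all tested genes. In inhibition against control 36.2% of all tested genes were higher and 36.1% lower. Of 37 tested genes of histone mRNA processing and transcription, 10 were higher, 17 lower and 10 did not pass in inhibition against control. Slbp, the stem-loop-binding protein, had 495, 463 and 468 CPM in inhibition libraries and 428, 410.3 and 415 CPM in control libraries (log2 fold change 0.18, adjusted p = 4.25e-05 by edgeR). Sympk, the scaffold of the 3′ end cleavage complex, fell to 15.2, 16.7 and 17.7 CPM in inhibition libraries, against 75.0, 74.3 and 61.1 CPM in control libraries (-2.08, adjusted p = 3.11e-13). Eri1, an exonuclease that trims histone mRNA ends, was higher (0.92, adjusted p = 2.72e-10).
Of 29 histone chaperones 9 were higher, 14 lower and 6 did not pass, beside the same shares of all tested genes. Nasp, a chaperone of free H3 and H4, had 78.2, 77.5 and 76.2 CPM in inhibition libraries and 174, 164 and 158 CPM in control libraries (-1.09, adjusted p = 6.8e-13). Asf1b, which hands H3 and H4 to the replication fork machinery, had 46.6, 45.6 and 47.5 CPM in inhibition libraries and 23.5, 23.1 and 23.9 CPM in control libraries (0.99, adjusted p = 1.59e-11).

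Of 44 S phase genes 23 were higher, 12 lower and 9 did not pass in inhibition against control, and the median was 0.17 on the log2 scale. Of all tested genes 36.2% were higher and 36.1% lower, with a median of 0.02. Rrm2, the S phase subunit of ribonucleotide reductase, had 209, 214 and 205 CPM in inhibition libraries and 74.7, 79.3 and 77.3 CPM in control libraries (1.44, adjusted p = 5.1e-15 by edgeR). Ccne2, a cyclin of S phase entry, had 108, 99.3 and 100.4 CPM in inhibition libraries and 28.9, 29.8 and 29.0 CPM in control libraries (1.81, adjusted p = 6.2e-15). Pcna, the sliding clamp of DNA polymerase, was higher by 0.57 (adjusted p = 5.51e-12), while Pola1, the catalytic subunit of DNA polymerase alpha, fell by 1.58.
With TMM, 40 of the 44 were lower in edgeR in spermidine against inhibition and 4 did not pass. None was higher (0 also at an unadjusted p under 0.05). But 14 were lower and 4 higher with total count, and 12 lower and 8 higher with limma on log2(TPM + 1). Of all 14461 tested genes 4183 were lower and 4213 higher with TMM, 1793 and 7711 with total count, and 1256 and 7112 with limma. In spermidine against control 13 were higher and 24 lower with TMM, against 21 higher and 16 lower with total count. Of all tested genes 5930 were then higher and 5363 lower with TMM, and 7705 higher and 3682 lower with total count. The core histones and the S phase genes had medians of opposite sign in inhibition against control, -2.02 and 0.17.

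**Figure D5:**
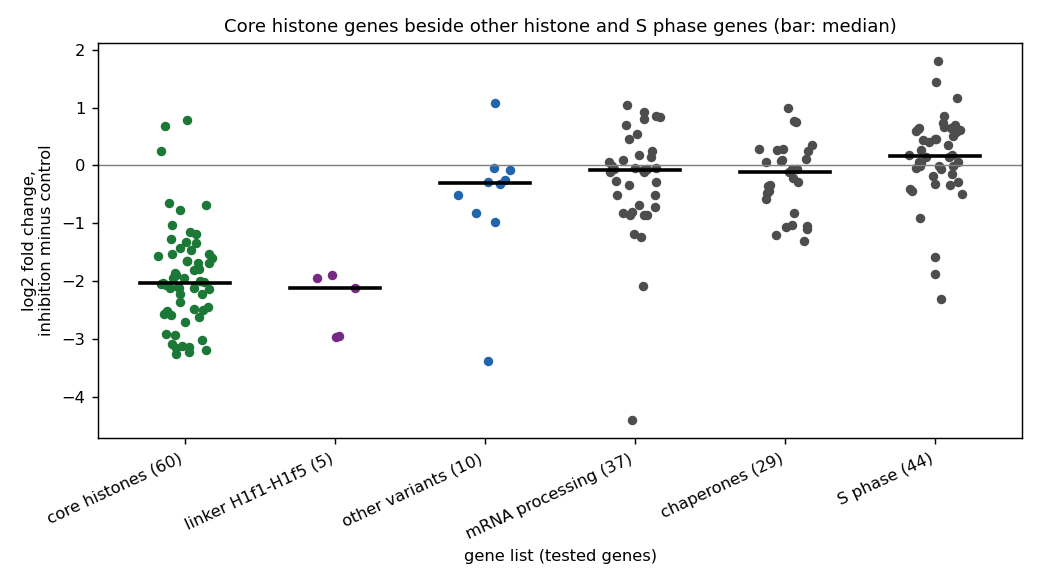
Log2 fold change of inhibition minus control for the 60 core histone genes, the linker genes H1f1 to H1f5, 10 other histone variants and the tested genes of 3 lists (points); the black bar is each list's median. Core histones and H1f1 to H1f5 lie near -2, with medians of -2.02 and -2.12, while the S phase median is 0.17.

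Markers of other blood cells moved between the same groups. All 12 neutrophil markers were detected in every group and summed to 2.45 to 2.55% of counts in spermidine libraries, 5.75 to 5.87% in inhibition libraries and 0.532 to 0.548% in control libraries. The 10 B and plasma cell markers summed to 0.196 to 0.212% in spermidine, 0.437 to 0.467% in inhibition and 0.00799 to 0.00812% in control libraries, and the 8 megakaryocyte markers to 0.0194 to 0.0207% in spermidine, 0.0154 to 0.0164% in inhibition and 0.279 to 0.283% in control libraries. The 12 erythroid markers listed summed to 0.142 to 0.149% in spermidine, 0.137 to 0.138% in inhibition and 0.322 to 0.333% in control libraries, although in inhibition against control 6 of the 12 were called higher and 6 lower. The 7 T and NK cell markers summed to 0.113 to 0.123% in spermidine, 0.178 to 0.191% in inhibition and 0.119 to 0.129% in control libraries, and of the 6 tested 5 were higher and 1 lower in spermidine against control. The 6 monocyte markers summed to 0.0597 to 0.0627% in spermidine, 0.104 to 0.106% in inhibition and 0.0534 to 0.0553% in control libraries. The 10 HSC markers summed to 0.0596 to 0.0603% in spermidine, 0.0478 to 0.0486% in inhibition and 0.0384 to 0.0405% in control libraries, and no marker of these lists was at 0 in any group. The part of these cell types in the histone differences was not tested. With the genes of the other cell types and immunoglobulin genes left out before scaling, 56 members were lower and 2 higher in inhibition against control, with a median of -2.02. That step leaves any histone reads of such cells in the counts, so it is a check of the scaling and not of the cell mixture.

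The promoters of the members share short motifs that the choice by symbol did not use. RefSeq promoters (GRCm38.p6, 250 bases before to 50 after the start) were found for 51 members and searched on both strands. The 3 windows below, 150 bases each, show an H2B, an H2A and an H4 promoter, with capitals marking ATTTGCAT (the octamer), CCAAT and TATAAA on either strand.
H2bc8, chr13:23571250-23571399, plus strand: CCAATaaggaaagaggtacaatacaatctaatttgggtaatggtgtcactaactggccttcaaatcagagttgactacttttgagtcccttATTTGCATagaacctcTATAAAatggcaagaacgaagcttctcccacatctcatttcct
H2ac20, chr3:96220881-96221030, minus strand: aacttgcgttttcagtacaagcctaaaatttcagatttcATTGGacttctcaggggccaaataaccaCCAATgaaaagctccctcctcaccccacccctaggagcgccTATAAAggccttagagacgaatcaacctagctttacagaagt
H4c17, chr13:21811596-21811745, plus strand: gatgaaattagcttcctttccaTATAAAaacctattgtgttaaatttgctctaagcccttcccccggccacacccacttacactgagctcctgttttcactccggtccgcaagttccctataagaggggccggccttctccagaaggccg
The octamer was in 6 of 17 H2A and 6 of 13 H2B promoters and in none of the 10 H3 and 11 H4 promoters, against 1.75% of all 27025 promoters. CCAAT was in 43 of the 51 (84.3%), in 3 of the 11 H4 promoters and in all others, against 37.9% of all promoters. TATAAA was in 29 of 51 (56.9%), against 14.2%. Some H2A and H2B promoters overlap on opposite strands, as that of H2bc8 does with an H2A promoter. The same copy of a motif can then be counted for both genes, so these counts are not from separate promoters. Genes with and without the octamer fell: H2bc8, which has it, fell by 1.88 ± 0.05 in inhibition against control on the log2 scale, and H4c17, which has neither the octamer nor CCAAT in its window, fell by 2.69 ± 0.07. A match is a description of these letters and not a bound site.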

How the data were processed

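Per the labels' protocols, cDNA of the sorted cells' RNA went through 12 PCR cycles, and fragments cut by a transposase were read from both ends. The submitters' processing notes name Trim Galore 0.6.2, STAR 2.6.1d, HTSeq 0.10.0, edgeR 3.24.3 and mm10. The authors deposited estimated counts per gene, not scaled between libraries, and TPM values, scaled for length and depth. The step that made fractional counts is not given in the sources used here: 48.2% of all values are whole within 1e-06, but 2.4% of those of the members, so reads may have been divided between similar genes. No strand-specific step is stated, and 23 members overlap another annotated gene.

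Counts were rounded and tested in edgeR 4.0.16 (R 4.3.3; TMM, quasi-likelihood, default low-count filter, all 9 libraries in 1 fit), with Benjamini-Hochberg adjustment over 14461 genes. Limma 3.58.1 and DESeq2 1.42.0 served as alternatives. The fit was tested on simulated data with the same spread for every gene and no reads shared between copies. That test does not cover members with near-identical copies. TMM factors were 0.931 to 1.14. A count of 0 allows 0.118 to 0.186 CPM (3 counts; counting error only, as PCR copies are not independent molecules). An exact permutation test of 3 against 3 libraries cannot go below 0.10, so none was used. Libraries within groups differed by more than sampling noise (mean chi-squared per gene 2.31 to 7.22). Same-numbered libraries correlated at -0.0365 to 0.0526 after removing group means, so no block was used. Genes, members and lists were chosen with earlier results of these data known. Members named were taken from the 4 most abundant per family and the 4 largest rises and falls per comparison with no overlap and a mean of at least 1 CPM. From the other lists, genes were taken from the histone variants and from the 5 smallest p-values of any comparison. Not every gene so chosen is printed, and H3c4, H3c11, H4c3 and several variants are left out. Others are marked as named after their values were seen or stand beside a sequence or in a sum of near-identical copies. Annotation was GENCODE M21 (mm10), to which all 60 members matched by identifier.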

Additional observations from a re-analysis of the deposited data

How the results depend on the processing

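In inhibition against control 55 to 57 members were lower and 2 or 3 higher under all alternatives tried, and in spermidine against control 56 to 58 were lower. In spermidine against inhibition, total count gave 16 lower and 10 higher of 60, and limma on TPM 20 called with either pseudocount, 11 lower and 9 higher; over all genes, lower calls were 1793 with total count and 1256 and 1226 with limma (pseudocounts 1 and 0.1), and higher calls 7711, 7112 and 7079. There H2bc4 turned to 0.13 (total count) and 0.17 (limma, both pseudocounts), H2bc14 to 0.029, 0.059 and 0.060, H3c13 to 0.033, 0.139 and 0.140, and H4c9 to 0.052 and 0.053 (limma). In spermidine against control limma called 2811 and 2751 of all genes lower, and leaving out libraries in turn gave 0 to 1 members higher. As shares of TPM in place of counts, inhibition over control was 0.466 for H2A, 0.274 for H2B, 0.338 for H3 and 0.233 for H4; spermidine over control was 0.452 for H2A, 0.298 for H2B and 0.331 for H3; spermidine over inhibition was 0.981 for H3. The cause of these shifts was not tested. With the replicate block, 56 members were lower and 2 higher in inhibition against control, 33 and 3 in spermidine against inhibition, and 58 and 0 in spermidine against control; the same number pairs no libraries, and the block changed no call count of the members. Depth limits the members under 1 CPM, such as H4c12 in spermidine libraries.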
